A study of Mus musculus with 6 samples.

Results

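The 7 MS4A genes Ms4a1, Ms4a4b, Ms4a4c, Ms4a6b, Ms4a6c, Ms4a6d and Ms4a7 were followed in splenic B cells of p80HT transgenic and wild-type mice. They were taken by gene symbol, and all 7 were among the 19938 genes measured. Each was read by 1 probeset, a set of probes against 1 gene whose signal is summarised as a single log2 value per array. The p80HT mice carry the coding sequence of a human NF-κB2 mutant found in lymphoma, which lacks part of its C-terminus, under an H-2Kb promoter with an immunoglobulin μ enhancer, so that T cells as well as B cells express it. The 3 p80HT mice were positive for M-protein, a monoclonal immunoglobulin in serum, and the 3 wild-type (WT) mice were their littermates. All 6 were 1 year old and of a mixed C57BL/6J and SJL/J background. Cells were selected from spleen with magnetic beads and an antibody to B220, the CD45 form of most mouse B cells, and each mouse gave 1 Affymetrix Mouse Gene 1.0 ST array. The transgene itself is human, and the mouse Nfkb2 probeset differed by -0.17 on the log2 scale between the groups, so it gave no check of the genotype labels.

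MS4A genes encode small proteins that cross the membrane several times and have both ends inside the cell. Many of them sit on leukocytes, where they join receptor complexes and modulate signalling or calcium entry. Ms4a1 encodes CD20, the B cell surface protein targeted by rituximab in its human form. Ms4a4b and Ms4a6b are known from T cells, where their products associate with the co-stimulatory receptor GITR. Ms4a6c, Ms4a6d and Ms4a7 are known from monocytes and macrophages, and Ms4a4c is a close relative of Ms4a4b. In the mouse the genes form a cluster on chromosome 19. In RefSeq, Ms4a4c, Ms4a4b, Ms4a6c and Ms4a6b follow one another there with no other MS4A gene in between.

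The promoters of these neighbours are shown because the genes of each pair are near copies whose differences between p80HT and WT, given further on, were unlike. The sequences are RefSeq's, in build GRCm38.p6, with 250 bases before the annotated start and 50 after it, all on the plus strand and printed 5′ to 3′. Ms4a4c lies at chr19:11407411-11407710 and Ms4a4b at chr19:11443308-11443607. Ms4a6c lies at chr19:11469118-11469417 and Ms4a6b at chr19:11518309-11518608. Capitals mark matches, searched on both strands, to GAGGAA (an ETS factor core) and ATTTGCAT (the octamer of Oct factors). They also mark GAAANNGAA (paired GAAA elements as in interferon-responsive genes) and TGANTCA. The last is looser than the AP-1 site, whose middle base is C or G. Its match in Ms4a4b, TGAATCA, has an A there.
Ms4a4c: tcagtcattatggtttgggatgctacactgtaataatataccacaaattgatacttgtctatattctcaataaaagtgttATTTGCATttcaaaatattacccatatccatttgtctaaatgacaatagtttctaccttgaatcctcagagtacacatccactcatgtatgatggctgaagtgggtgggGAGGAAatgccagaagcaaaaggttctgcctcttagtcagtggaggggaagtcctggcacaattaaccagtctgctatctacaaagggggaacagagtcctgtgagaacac
Ms4a4b: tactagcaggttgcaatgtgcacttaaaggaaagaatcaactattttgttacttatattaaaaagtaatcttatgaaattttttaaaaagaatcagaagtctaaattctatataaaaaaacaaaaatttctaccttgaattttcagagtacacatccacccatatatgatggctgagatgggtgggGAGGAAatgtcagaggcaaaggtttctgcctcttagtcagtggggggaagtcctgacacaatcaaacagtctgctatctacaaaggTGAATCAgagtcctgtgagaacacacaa
Ms4a6c: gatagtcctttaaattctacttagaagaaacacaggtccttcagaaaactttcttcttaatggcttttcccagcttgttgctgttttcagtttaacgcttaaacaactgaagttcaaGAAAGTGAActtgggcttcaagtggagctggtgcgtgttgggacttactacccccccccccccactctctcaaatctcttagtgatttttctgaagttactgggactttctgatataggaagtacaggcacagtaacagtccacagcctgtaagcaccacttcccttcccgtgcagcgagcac
Ms4a6b: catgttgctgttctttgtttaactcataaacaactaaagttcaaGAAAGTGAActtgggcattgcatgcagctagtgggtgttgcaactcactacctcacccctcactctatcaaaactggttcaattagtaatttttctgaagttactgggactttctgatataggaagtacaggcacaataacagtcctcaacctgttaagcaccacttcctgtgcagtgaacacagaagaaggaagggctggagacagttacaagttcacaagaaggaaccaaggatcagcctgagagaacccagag
The Ms4a4c and Ms4a4b promoters aligned over 183 columns with 162 identical bases, 88.5%, and both held GAGGAA at nearly the same place, 61 and 64 bases before the start. The octamer, 170 bases before the Ms4a4c start, lay upstream of the aligned stretch and had no match in the Ms4a4b window. Ms4a6c and Ms4a6b aligned over 232 columns with 188 identical bases, 81.0%, and both held GAAANNGAA, at 133 and 206 bases before their annotated starts. Of 32851 RefSeq promoters of this length, 28.3% held GAGGAA, 8.56% GAAANNGAA, 7.81% TGANTCA and 1.74% ATTTGCAT. The κB consensus, to which NF-κB proteins bind, was found in 8.46% of all promoters and in none of the 6 windows listed for Ms4a4b, Ms4a4c, Ms4a6b, Ms4a6c and Ms4a7. These matches describe the letters in a window and say nothing of whether a factor binds there. Promoters of Ms4a1 and Ms4a6d are not shown.

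One array stood apart from the rest. Over all genes p80HT 3 correlated with the other 5 arrays at r = 0.914 to 0.925, whereas these 5 correlated with each other at 0.981 or above. On p80HT 3 the salivary gland genes Pip, Amy1 and Smr3a reached 13.7, 13.5 and 13.4 on the log2 scale, against 5.15 to 6.27 on the other 5 arrays. Its mean over 13 B cell markers was 10.8, against 12.0 and 12.1 on p80HT 2 and p80HT 1 and 12.3 to 12.4 on the WT arrays. Results on the members are therefore given with and without p80HT 3. As RNA of many cells was measured together, fewer cells of a type and less RNA per cell cannot be told apart. Signals of different probesets are not comparable as levels, so genes were compared by their differences between arrays. As a guide to background, 1015 olfactory receptor genes had medians of 5.51 to 5.88 and 95th percentiles of 7.08 to 7.68 on the 6 arrays.

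Ms4a4c was lower in the B220-selected cells of p80HT mice than in those of WT mice. Ms4a6c, Ms4a6d and Ms4a7 were higher on each p80HT array than on any WT array, and Ms4a1, Ms4a4b and Ms4a6b overlapped between the groups. At the threshold of the study (a change of 1.5-fold or more and an unadjusted p below 0.01, here in limma), 1 of the 7 genes was called lower and 0 were called higher. Over all genes 0.968% were called lower and 1.22% higher at that threshold, and 0.0552% had an adjusted p under 0.05, none of them an MS4A member. Without p80HT 3, Ms4a4c was called lower and Ms4a6c and Ms4a6d higher, and over all genes 1.45% were called lower and 2.01% higher. In that comparison 4.67% of all genes had an adjusted p under 0.05, and these 3 members did too. The groups did not overlap for 1 member that was lower and 3 that were higher, against 11.9% and 8.86% of all genes. The median difference of the 7 genes was 0.78 on the log2 scale (all genes, -0.02), and without p80HT 3 it was -0.08 (all genes, 0.04).

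**Figure D1:**
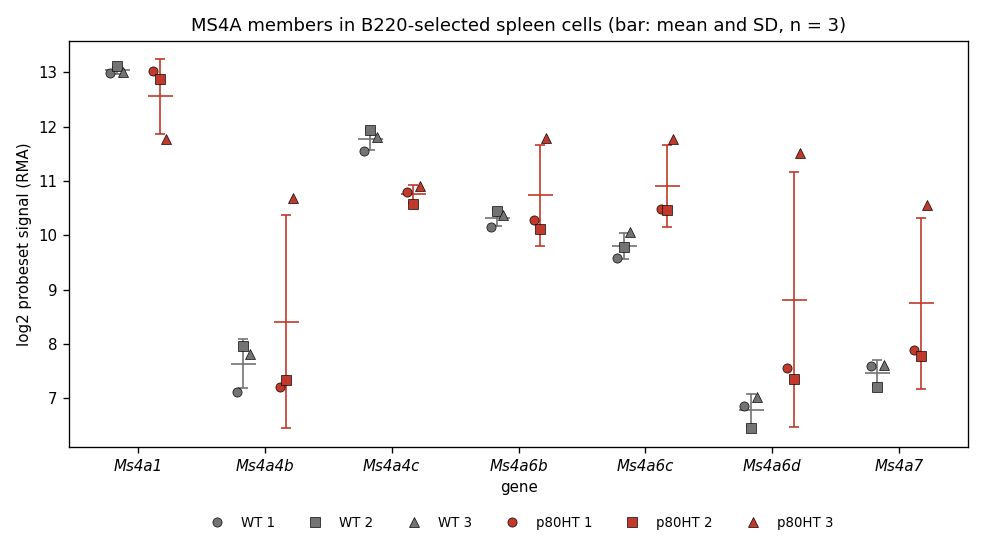
Log2 probeset signal (RMA) of the 7 MS4A genes on each of the 6 arrays, with WT in grey, p80HT in red, a symbol per mouse, and horizontal lines and bars for the mean and SD (n = 3). The p80HT points of Ms4a4c all lie below its WT points, while p80HT 3 lies far above p80HT 1 and p80HT 2 for Ms4a4b, Ms4a6d and Ms4a7.

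Ms4a1, the CD20 gene, did not pass the test. The signal of its probeset (10466172) was 12.99, 13.12 and 13.00 on the WT arrays and 13.03, 12.88 and 11.77 on the p80HT arrays 1, 2 and 3. The first p80HT array lay within the WT range, the second just under it, and only p80HT 3 was clearly lower. The difference was -0.48 (95% interval -1.23 to 0.27, adjusted p = 0.657 in limma), and without p80HT 3 it was -0.08 (-0.33 to 0.16, adjusted p = 0.670). The difference was also negative for 12 of 13 B cell markers, Cd72 being the exception. Of the 13, 0 were called in either direction, and the median difference was -0.65, or -0.22 without p80HT 3. Cd79a and Cd79b, the signalling chains of the B cell receptor, and Cd22, an inhibitory co-receptor, differed by -0.65, -0.46 and -0.40. Without p80HT 3, 2 of the 13 were called lower, the complement receptor gene Cr2 by -1.13 and the CD23 gene Fcer2a by -1.0. Over all genes 1.45% were called lower in that comparison. There the differences of Blk and Spib turned positive, at 0.16 and 0.20, and that of Cd72 was 0.10. Measured against the WT mean, Ms4a1 departed by -0.01, -0.16 and -1.27 on p80HT 1, 2 and 3, and the mean of the B cell markers by -0.25, -0.37 and -1.56.

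The T cell member Ms4a4b differed widely on 1 p80HT array only. Its probeset (10461605) had signals of 7.13, 7.97 and 7.82 in WT and of 7.21, 7.35 and 10.68 in p80HT. The first 2 p80HT arrays lay within the WT range and p80HT 3 was above every other array. WT 1, p80HT 1 and p80HT 2 were under the 95th percentile of the olfactory receptor genes on the same array. The difference was 0.78 (95% interval -1.29 to 2.84, adjusted p = 0.858 in limma), and without p80HT 3 it turned to -0.36 (-0.83 to 0.12, adjusted p = 0.353).

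Ms4a6b, the other member known from T cells, was likewise high on p80HT 3 alone. Signals were 10.15, 10.44 and 10.39 in WT and 10.29, 10.13 and 11.80 in p80HT (probeset 10461622). Again p80HT 1 lay inside the WT range, p80HT 2 just under it and p80HT 3 above it. The difference of 0.41 (95% interval -0.57 to 1.40, adjusted p = 0.830 in limma) turned to -0.12 without p80HT 3 (-0.40 to 0.16, adjusted p = 0.583).

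General T cell markers followed another course on p80HT 1 and p80HT 2. Of 13 T cell markers measured, 4 were called higher and 0 lower, with a median difference of 1.27. Without p80HT 3, 10 were called higher with a median of 0.62. Over all genes 1.22% were called higher with all 6 arrays and 2.01% without p80HT 3. Cd3e, which encodes CD3ε, had signals of 9.41, 9.83 and 9.63 in WT and 11.07, 10.75 and 12.29 in p80HT, a difference of 1.74 that was called, and 1.28 without p80HT 3. Its partner Cd3g was called higher by 2.03, Cd5 by 1.10 and the co-stimulatory receptor gene Cd28 by 0.92 (1.41, 0.79 and 0.87 without p80HT 3, all called). Cd3d differed by 1.29, which was not called with all 6 arrays, and by 0.62 without p80HT 3, which was. Apart from p80HT 3, each Cd3d signal was under the 95th percentile of the olfactory receptor genes on its array. The Cd3d call without p80HT 3 thus rests on signals not clear of background. Against the WT mean, the T cell markers were higher by 0.79, 0.61 and 2.16 on p80HT 1, 2 and 3, whereas Ms4a4b departed by -0.42, -0.29 and 3.05 and Ms4a6b by -0.04, -0.20 and 1.47. The part of T cells in the signals of Ms4a4b and Ms4a6b was not tested.

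Ms4a6c was higher in the B220-selected cells of p80HT mice by 1.10 on the log2 scale, 2.14-fold. The signals of its probeset (10461614) were 9.59, 9.79 and 10.06 in WT and 10.48, 10.46 and 11.78 in p80HT. All 3 p80HT arrays exceeded the highest WT array, p80HT 3 by the most. With all 6 arrays the difference missed the threshold (95% interval 0.25 to 1.94, adjusted p = 0.388 in limma). Without p80HT 3 it was smaller and was called, at 0.66 (0.35 to 0.97, adjusted p = 0.0285).

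Ms4a6d gave the widest spread among the members. WT signals were 6.87, 6.46 and 7.03, and p80HT signals were 7.57, 7.36 and 11.52 (probeset 10466210). The p80HT arrays were all above the highest WT array, 2 of them by under 1 log2 unit and p80HT 3 by over 4. Apart from p80HT 3, each signal was under the 95th percentile of the olfactory receptor genes on its array. The difference was 2.03 (95% interval -0.38 to 4.44, adjusted p = 0.553 in limma) and was not called, and without p80HT 3 it was 0.68 (0.31 to 1.04, adjusted p = 0.0463) and was called higher.

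Ms4a7 put the 6 arrays in the same order as Ms4a6d did. Its probeset (10466200) had signals of 7.59, 7.21 and 7.62 in WT and of 7.89, 7.79 and 10.57 in p80HT. Here too the groups did not overlap and p80HT 3 lay far above the rest. On WT 2 the Ms4a7 signal was under the 95th percentile of the olfactory receptor genes. On WT 1 and p80HT 2 it was close above that percentile (7.58 and 7.68). The difference was 1.28 (95% interval -0.36 to 2.92, adjusted p = 0.579 in limma), and without p80HT 3 it was 0.37 (0.06 to 0.68, adjusted p = 0.166), and neither was called.

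Markers of macrophages and monocytes were measured beside these 3 genes. Of 15 markers, 2 were called higher and 0 lower with a median difference of 0.89 (1.22% of all genes were called higher). Without p80HT 3 again 2 were called higher with a median of 0.41 (2.01% of all genes were called higher). The 2 called with all arrays were Adgre1 (F4/80), by 0.72, and Vsig4, a complement receptor of tissue macrophages, by 0.62 (0.92 and 0.61 without p80HT 3). Vsig4 had signals of 5.67, 5.67 and 5.76 in WT and 6.36, 6.25 and 6.35 in p80HT. Each was under the 95th percentile of the olfactory receptor genes on its array, so this call rests on signals not clear of background. Adgre1 had signals of 10.10, 10.31 and 9.61 in p80HT, lowest on p80HT 3. Csf1r, the receptor for macrophage colony-stimulating factor, had signals of 9.66, 9.33 and 9.46 in WT and 10.11, 9.97 and 11.20 in p80HT and was not called. The complement gene C1qa had signals of 9.01, 8.71 and 9.03 in WT and 9.13, 9.22 and 12.03 in p80HT and was not called either. Above the WT mean, the macrophage markers departed by 0.49, 0.32 and 1.76 on p80HT 1, 2 and 3, Ms4a6c by 0.67, 0.65 and 1.97, Ms4a6d by 0.78, 0.57 and 4.73, and Ms4a7 by 0.42, 0.32 and 3.10. The macrophage list ranged from 8.52 to 8.68 in mean signal over the WT arrays and from 8.90 to 10.3 over the p80HT arrays, without overlap, and its part in the signals of the 3 genes was not tested.

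Ms4a4c was the member that passed the threshold with all 6 arrays, and it went down. The signals of its probeset (10461594) were 11.55, 11.95 and 11.80 in WT and 10.80, 10.58 and 10.91 in p80HT. Every p80HT array was lower than every WT array, and p80HT 3 was no farther from WT than the other two. The difference was -1.01 (95% interval -1.38 to -0.64, 2.01-fold, adjusted p = 0.116 in limma), and without p80HT 3 it was -1.08 (-1.39 to -0.77, adjusted p = 0.00205). Ms4a4c is also on the list of altered genes that the study drew from these same arrays, so its call is not independent evidence of the direction. Relative to the WT mean it departed by -0.97, -1.19 and -0.86 on p80HT 1, 2 and 3. None of the B cell, T cell and macrophage marker means shared this pattern, but that holds for means only. Of 13 B cell markers 8 were lower on every p80HT array than on any WT array, as were 11.9% of all genes. Of 8 dendritic cell markers 2 were lower in this way and 3 were higher on every p80HT array than on any WT array, as were 8.86% of all genes.

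**Figure D2:**
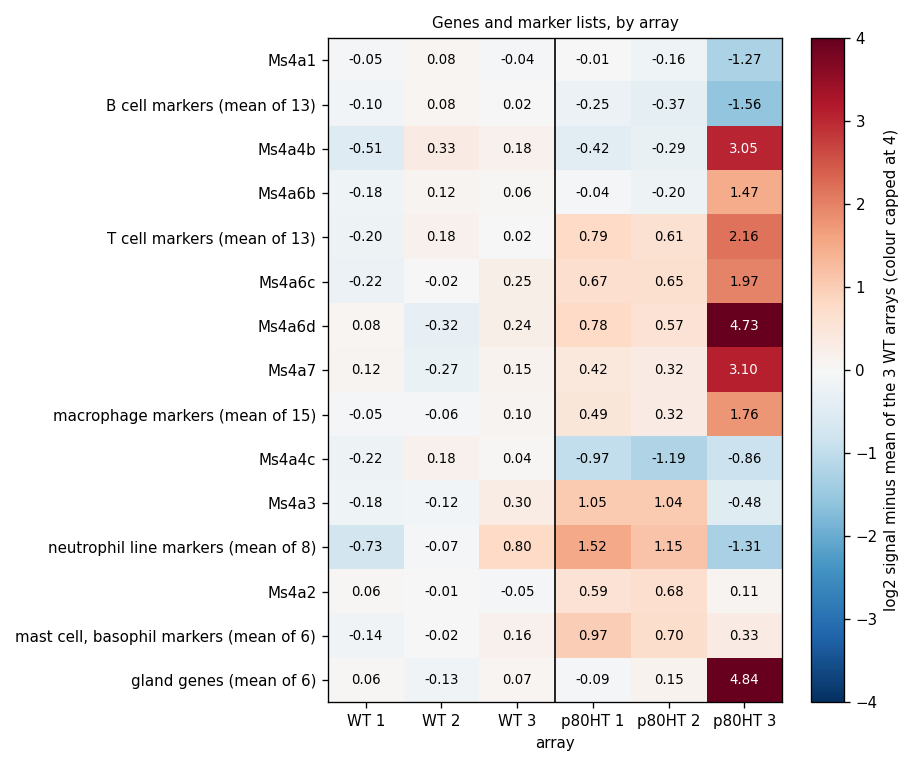
Log2 signal minus the mean of the 3 WT arrays, for single genes and for the means of marker lists (rows), on each of the 6 arrays (columns), with colour capped at 4 and the value printed in each cell. Ms4a4b and Ms4a6b are below the WT mean on p80HT 1 and p80HT 2, where the T cell markers are 0.79 and 0.61 above it, and Ms4a4c is lower by 0.86 to 1.19 on all 3 p80HT arrays.

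To compare the B cell member with the others, the log2 signal of Ms4a1 was subtracted from that of each of the 6 other members on the same array. Relative to Ms4a1, the myeloid members Ms4a6c, Ms4a6d and Ms4a7 were higher in p80HT by 1.58, 2.51 and 1.76, with no overlap of the groups. For each of the 3 the exact permutation test gave p = 0.1, 2-sided, the smallest p that 3 arrays against 3 allow, and 0.2 after adjustment over the 6 comparisons. Without p80HT 3 the changes were 0.74, 0.76 and 0.45. For the T cell members the changes relative to Ms4a1 were 1.25 for Ms4a4b (exact permutation p = 0.8) and 0.89 for Ms4a6b (exact permutation p = 0.7). They turned to -0.28 and -0.04 without p80HT 3. Ms4a4c changed by -0.53 relative to Ms4a1 (exact permutation p = 0.4), and by -1.0 without p80HT 3, whose own Ms4a1 signal was low.

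The neighbouring near copies were compared in the same way, a description chosen after their values were seen and given without a test. Ms4a4c minus Ms4a4b was 4.42, 3.98 and 3.98 in WT and 3.58, 3.23 and 0.22 in p80HT, a change of -1.79, or -0.72 without p80HT 3. The groups did not overlap, and the low value of p80HT 3 came with its high Ms4a4b signal. On WT 1, p80HT 1 and p80HT 2 the Ms4a4b signal was under the 95th percentile of the olfactory receptor genes, so the change of -0.72 rests in part on signals not clear of background. Ms4a6c minus Ms4a6b was -0.56, -0.66 and -0.33 in WT and 0.19, 0.33 and -0.02 in p80HT. This difference hardly depended on p80HT 3, whose value lay closest to WT. Its mean was -0.52 ± 0.17 in WT and 0.17 ± 0.18 in p80HT (SD, n = 3), a change of 0.69, or 0.78 without p80HT 3. How far probes of 1 copy also bind the RNA of the other was not tested, as probe sequences were not used here.

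Of 14 other genes of the family and its TMEM176 relatives, 12 were measured. Ms4a14 and Ms4a18 were not analysed here. With all 6 arrays 0 of the 12 were called in limma, 4 had an unadjusted p under 0.05 (10.2% of all genes did), and the median difference was 0.26. Without p80HT 3, 3 were called higher and 1 lower, with a median of 0.27. Over all genes 2.01% were called higher and 1.45% lower in that comparison, and the median was 0.04.

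Ms4a2 and Ms4a3 were high on p80HT 1 and p80HT 2 rather than on p80HT 3. Ms4a2, the β chain of the high-affinity IgE receptor of mast cells and basophils, had signals of 5.53, 5.46 and 5.43 in WT and 6.06, 6.15 and 5.58 in p80HT. All p80HT arrays were above WT, although each signal was under the 95th percentile of the olfactory receptor genes. The difference was 0.46 (adjusted p = 0.442 in limma) and, without p80HT 3, 0.63 (adjusted p = 0.00841, called higher). Ms4a3, a gene of granulocyte and monocyte precursors, had signals of 6.60, 6.66 and 7.07 in WT and 7.82, 7.82 and 6.29 in p80HT, so that p80HT 3 was the lowest array and the first 2 were the highest. Only on p80HT 1 and p80HT 2 was Ms4a3 above the 95th percentile of the olfactory receptor genes, which was 7.61 and 7.68 there. Ms4a3 differed by 0.54 (adjusted p = 0.714 in limma) and, without p80HT 3, by 1.05 (adjusted p = 0.00371, called higher).

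Markers of these cell types were measured beside both genes. Of 8 genes of neutrophils and their precursors 0 were called with all 6 arrays (S100a8, Ly6g and Ngp differed by -0.04, -0.21 and -0.40), and without p80HT 3 the granule enzyme genes Mpo, Elane, Prtn3 and Ctsg were called higher by 2.28, 2.10, 1.34 and 1.29. Their list departed from the WT mean by 1.52, 1.15 and -1.31 on p80HT 1, 2 and 3, and Ms4a3 by 1.05, 1.04 and -0.48. Of 6 mast cell and basophil genes 0 were called with all 6 arrays. Without p80HT 3, Cpa3, Mcpt8, Prss34 and Kit were called higher, by 1.00, 1.57, 1.07 and 0.60. Over all genes 2.01% were called higher without p80HT 3. Fcer1a, the α chain that pairs with Ms4a2, differed by 0.46 and 0.27 with and without p80HT 3 and was called in neither. Cpa3 and Fcer1a were highest on p80HT 3, where Ms4a2 was lowest of the p80HT arrays. Each Fcer1a signal, like each Ms4a2 signal, was under the 95th percentile of the olfactory receptor genes on its array. The contrast between Fcer1a and Ms4a2 thus rests on signals not clear of background. The mast cell and basophil list departed by 0.97, 0.70 and 0.33, and Ms4a2 by 0.59, 0.68 and 0.11. Whether such cells gave the signals of Ms4a2 and Ms4a3 was not tested.

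Tmem176a and Tmem176b, relatives of the family known from dendritic and other myeloid cells, were likewise highest on p80HT 3. Tmem176b had signals of 9.87, 9.76 and 9.75 in WT and 10.54, 10.37 and 12.35 in p80HT, a difference of 1.29 (adjusted p = 0.440 in limma) and, without p80HT 3, of 0.66 (adjusted p = 0.00913, called higher). Tmem176a had signals of 8.87, 8.83 and 8.96 in WT and 9.64, 9.30 and 12.02 in p80HT. Its difference was 1.43 (95% interval -0.10 to 2.97), and without p80HT 3 it was 0.58 (adjusted p = 0.0299), just short of 1.5-fold. For both genes the groups did not overlap.

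Ms4a4a, which neighbours Ms4a4c, was the other gene called lower without p80HT 3. Its signals were 8.43, 8.71 and 8.79 in WT and 8.15, 7.79 and 8.52 in p80HT, where p80HT 3 fell inside the WT range. The difference was -0.49 (adjusted p = 0.486 in limma), and without p80HT 3 it was -0.67 (adjusted p = 0.0336). Ms4a4d had signals of 7.09, 7.36 and 7.44 in WT and of 6.82, 6.89 and 9.84 in p80HT. It was thus below WT on 2 p80HT arrays and far above it on p80HT 3, with differences of 0.55 and, without p80HT 3, -0.44, neither of them called. Ms4a8a differed by 0.82 (0.43 without p80HT 3) and Ms4a5, Ms4a10, Ms4a12, Ms4a13 and Ms4a15 by -0.22 to 0.06 (-0.12 to 0.30), and none of the 6 was called with or without p80HT 3.

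**Figure D3:**
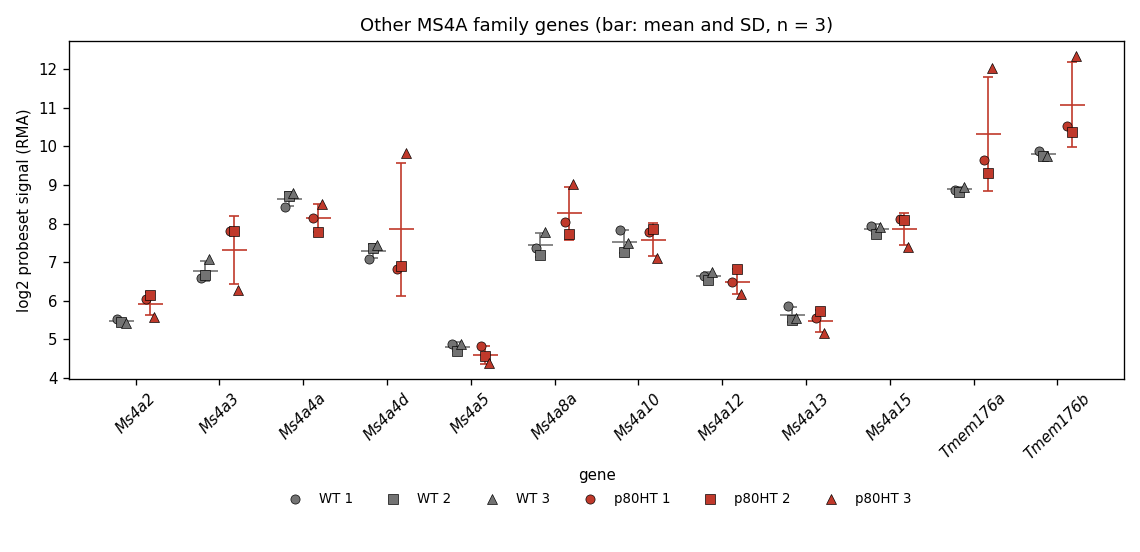
Log2 probeset signal (RMA) of the 12 other MS4A and TMEM176 genes on each array, drawn as for the 7 members, with mean and SD (n = 3). Ms4a2 and Ms4a3 are highest on p80HT 1 and p80HT 2, whereas Ms4a4d, Tmem176a and Tmem176b are highest on p80HT 3.

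Along the chromosome, genes with differences of both signs lay within the cluster. With all 6 arrays, the run Ms4a7, Ms4a4a, Ms4a4c, Ms4a4b, Ms4a6c, Ms4a6b, Ms4a4d and Ms4a6d had differences of 1.28, -0.49, -1.01, 0.78, 1.10, 0.41, 0.55 and 2.03, of which only that of Ms4a4c was called. Without p80HT 3, the same run had differences of 0.37, -0.67, -1.08, -0.36, 0.66, -0.12, -0.44 and 0.68. In this second set Ms4a4a and Ms4a4c were called lower and Ms4a6c and Ms4a6d higher. At the other end of the cluster Ms4a19 and Ms4a20, which were on neither list, had signals of 4.58 to 4.90 on all 6 arrays and differed by -0.10 each.

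**Figure D4:**
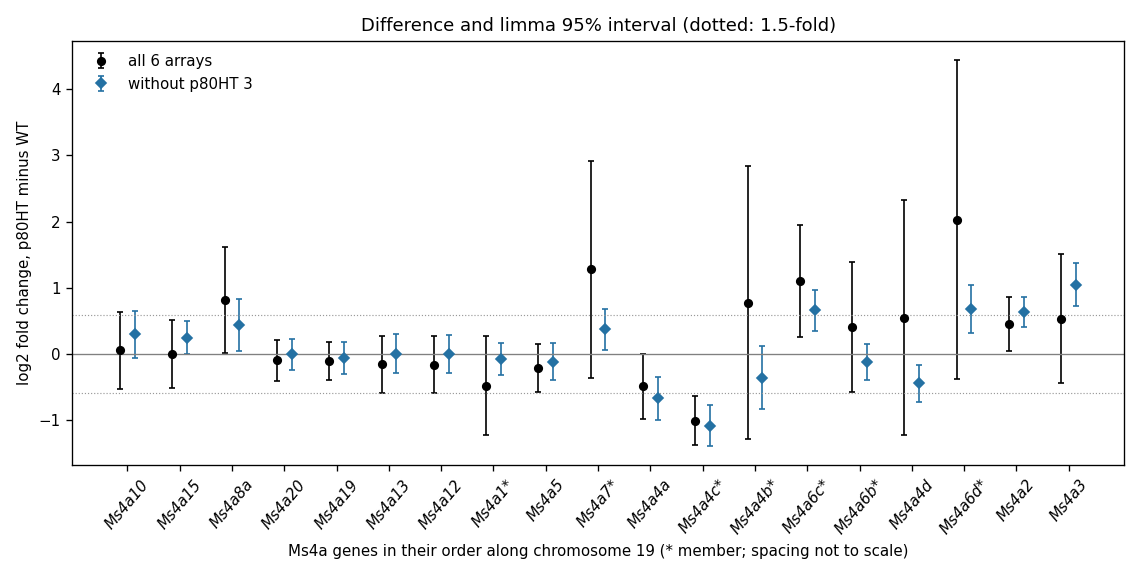
Log2 fold change (p80HT minus WT) with limma's 95% interval for the measured Ms4a genes in RefSeq's order along chromosome 19, with all 6 arrays (black circles) and without p80HT 3 (blue diamonds); asterisks mark the 7 members, dotted lines 1.5-fold, and spacing is not to scale. Intervals narrow without p80HT 3, and Ms4a4c is the gene farthest below 0 in both.

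The genes most like each member in pattern over the 6 arrays are given as a description, since p80HT 3 is the extreme array for 6 of the 7. Ms4a1 was followed most closely by Plekhm3, Cers4 and Jmjd1c (r = 0.999 for each), all of them lowest on p80HT 3. Clec4a1, a C-type lectin gene of myeloid cells, was nearest to Ms4a6d (r = 0.999), followed by Ms4a7 itself (0.999) and Sdc3 (0.998). For Ms4a7 the nearest were the complement genes C4b (0.998) and C1qa (0.997) and again Clec4a1 (0.997). Ms4a6b was most like the interferon-inducible Ifi27l2a (0.999), Cpne3 (0.998) and the cytokine gene Il18 (0.998), and Ms4a6c most like the interferon-inducible Gbp3 (0.998), Glipr1 (0.997) and Stk39 (0.996). Ms4a4b had Knl1 (0.991), Lyz1 (0.990) and Acer3 (0.988). For Ms4a4c, whose pattern p80HT 3 did not dominate, the nearest were Zfp280d (0.999), Smurf2 (0.988) and Plekhg2 (0.987), each with its 3 p80HT signals below its WT signals. Zfp280d had signals of 10.12, 10.31 and 10.21 in WT and 9.72, 9.61 and 9.76 in p80HT, a smaller step than that of Ms4a4c in the same order of arrays.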

How the data were processed

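RNA of B220-selected splenic B cells of 3 p80HT and 3 WT mice, each on 1 array, was compared. The values deposited by the authors are log2 probeset signals made with RMA in Partek; versions, settings and annotation release are not given in the sources used here. RMA in its standard form corrects background, normalizes quantiles and summarises probes. Of 28853 probesets, 21789 carry 1 gene symbol in the platform table, 1621 several and 5443 none. Those with 1 symbol were used, keeping per gene the probeset with the highest mean over the 6 arrays (19938 genes, 999 of them with several probesets). The file holds no columns of the authors' own comparisons.

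The p80HT and WT groups were tested in limma 3.58.1 (R 4.3.3; lmFit, eBayes) over all genes, 2-sided, with Benjamini-Hochberg adjustment, and called at the study's threshold. Differences are p80HT minus WT, errors are SDs over mice, and the number of arrays limits the precision. Single values were compared by exact permutation over arrays. The members and all lists were chosen with earlier results of these data known. Named genes were the members, the other family genes, and the first 3 and the called markers of each list set beside a member. Cd72, Blk and Spib were named as exceptions among the B cell markers. Also named were the 3 genes with the highest Pearson r with each member. These came from genes of at least median mean signal and of at least 50% of the member's SD. Alternatives were leaving out each array, a replicate block, analysis of variance as in the methods, an intensity trend, array weights, quantile normalization, median centring, mean-signal filters at percentiles 25 and 50, other probeset rules and other thresholds. Deviations of same-numbered mice from their group means correlated at r = 0.07, -0.24 and 0.07. As p80HT 3 pulls the mean of its group, these values cannot tell whether the numbers pair mice. Other values without p80HT 3 and the differences between near copies were added after the data were seen. Scripts were tested on simulated data. Lists of NK cells, dendritic cells and plasma cells were also measured: 0 of 6, 0 of 8 and 1 of 6 genes (Prdm1, higher by 0.80) were called, and Eomes and Itgax were called higher only without p80HT 3. The shares of all genes called higher were 1.22% with all 6 arrays and 2.01% without p80HT 3. Promoters were aligned with Biopython 1.88 under Python 3.11.15, tables were made in pandas 2.3.3, and matplotlib 3.10.9 drew the figures.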

Additional observations from a re-analysis of the deposited data

How the results depend on the processing

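The lower Ms4a4c was called under each alternative run that rests on a fold and an unadjusted p, with differences of -1.12 to -0.92 when each array was left out, but not at an adjusted p under 0.05. At that threshold 0 members and 11 genes were called, at 1.5-fold with p under 0.05 there were 2 members, 855 genes and 2 other family genes, and at the study's threshold 1, 436 and 0. Leaving out single arrays gave 1 to 3 members, 206 to 691 genes and 0 to 4 other family genes; the highest counts were without p80HT 3, and 206 and 220 genes came without WT 2 and WT 3. With the replicate block 2 members (Ms4a4c and Ms4a6c) and 2 other family genes were called; the block changed no other member's call. Array weights gave 900 genes and 5 other family genes, and ordinary analysis of variance 196 genes. The differences of Ms4a4b and Ms4a6b reversed without p80HT 3 (-0.36 and -0.12) and with array weights (-0.51 and -0.10), and their changes relative to Ms4a1 reversed without p80HT 3 (-0.28 and -0.037). Over single arrays left out, these changes ran from -0.28 to 2.09 for Ms4a4b, -0.04 to 1.35 for Ms4a6b, -1.0 to -0.28 for Ms4a4c, 0.74 to 2.03 for Ms4a6c, 0.76 to 3.40 for Ms4a6d and 0.45 to 2.42 for Ms4a7. With single arrays left out, the differences ran from -0.36 to 1.38 for Ms4a4b and from -0.12 to 0.72 for Ms4a6b. The cause of these shifts was not tested. Differences of the other members kept their direction under each alternative. Centring each array moved the median difference of all genes from -0.02 to -0.09. For Ms4a4b, Ms4a6d and Ms4a7 the spread that p80HT 3 adds limits what 3 arrays against 3 can show.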
